A study of Mus musculus with 96 samples.

Results

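The comparison described here is that of night feeding with free feeding in the livers of wild type mice of the Cry line. Its members were chosen by label alone: the 12 libraries of wild type Cry-line mice under night-restricted feeding (RF) and the 12 under ad libitum feeding (AL), 24 of 96 libraries in all. The wider study profiled liver mRNA in 8 groups of 12 libraries, from wild type (WT) and knockout (KO) mice of a Bmal1 line and of a Cry1/2 line, each under both feeding regimens. Mice were 12 to 16 weeks old, and liver was sampled every few hours at 6 times from ZT0 to ZT20 (ZT, zeitgeber time, counts hours from lights-on), with 2 libraries per group and time. The Cry WT groups carry intact Cry1 and Cry2, so both feeding groups share the genotype, and the labels separate them by when food was offered. The groups set beside them are Bmal1 WT under RF and AL, and Cry KO, which lacks both CRY proteins, under RF and AL, with 12 libraries each. Each feeding group of Cry WT held 2 numbered replicate series of 6 libraries, 1 library per time: series 2 and 4 under AL, and series 6 and 9 under RF. Since no label ties a library to its own animal, the tests rest on library-to-library spread, which may be technical.

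The liver clock is a transcriptional loop in which BMAL1 with CLOCK or NPAS2 drives the Per and Cry genes, whose products repress that drive, while the REV-ERB proteins (Nr1d1, Nr1d2) repress Arntl, the gene of BMAL1. Meals set the phase of many liver genes through insulin, amino acids and fatty acids. The nuclear receptor PPARA, activated by fatty acids, drives fat oxidation and the CYP4A enzymes in fasting. Many P450 genes also differ between male and female mouse liver, under the pattern of growth hormone release. Interferons act through STAT and IRF factors on antiviral and antigen presentation genes, in hepatocytes as well as in Kupffer cells, the macrophages of the liver.

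Total counts in the 24 libraries spanned 5029979 to 31568702, the median being 27344069. The library of lowest depth, series 9 of RF at ZT0, was followed by one of 22627563, and a level of 5 CPM (the count scaled to library size) stands for 25.1 counts in the shallowest and 137 in a library of median depth. Hepatocyte markers summed to 90300 to 129000 CPM over all 24, the labelled tissue being liver. Xist did not exceed 0.54 CPM. 3 libraries stood apart on single genes, and their share in the results below is given by values without them. Series 6 of RF at ZT12 had 20800 CPM of the acute-phase gene Saa1 against 2540 in the next library. Series 2 of AL at ZT12 had 102 CPM of the interferon gene Isg15 against 11.2 in the next. Series 4 of AL at ZT8 had 52.9 CPM of the pancreatic gene Ctrb1 against 0.697 in the next. The fits without these 3 also left out libraries of other groups that stood apart on the same genes. They were series 4 of Bmal1 KO under RF at ZT0 and ZT20, and series 5 of Cry KO under RF at ZT4.

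Averaged over the 6 times with equal weight, 250 of 15772 genes tested (1.59%) differed between RF and AL at a Benjamini-Hochberg adjusted p under 0.05 in edgeR's quasi-likelihood test. Of these, 102 (0.647%) were higher and 148 (0.938%) lower under RF. At an unadjusted p under 0.05 there were 2245 genes (14.2%), 1061 higher (6.73%) and 1184 lower (7.51%), the background for such counts below. The higher genes had a median log2 fold change of 0.56 and the lower genes of -1.1, while the median over all genes was 0.00. In 183 of the 250 the direction was the same at all 6 times. The 250 were called on the mean of those 6 differences, which favours such agreement. By the intercept of a cosine fit in place of the mean over times 445 genes differed (2.82%), 194 higher (1.23%) and 251 lower (1.59%). The higher genes included fatty acid omega-hydroxylases, female-biased P450 genes and enzymes of amino acid breakdown. The lower genes included interferon-inducible GTPases and antigen presentation genes.

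The libraries of the 2 regimens rarely separated in full. The range of the 12 RF libraries lay clear of that of the 12 AL libraries for 1 gene (0.00634% of those tested), and both RF series means lay on one side of both AL series means in 225 of the 250, against 42.0% of all genes. Since the 250 were called on these same libraries, their series means are favoured to separate. The single gene was Dynlt1b, a dynein light chain of vesicle transport (ENSMUSG00000096255, chr17:6430112-6436296 of mm10), named after its values were seen. It measured from 1.16 to 2.37 CPM under AL with a median of 1.6, and from 0.198 to 1.08 under RF with a median of 0.644. How reads were split between this gene and any near-identical copies is not known.

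Regimen and series cannot be told apart in this design, because no series number occurs under both regimens. The 2 AL series differed from each other in 58 genes and the 2 RF series in 5, and 23 of the 58 were among the 250. The median absolute log2 difference over all genes was 0.117 between the AL series, 0.147 between the RF series and 0.115 between the regimens. With the series as a random effect in limma-voom, with an estimated correlation of 0.248 between libraries of a series, no gene was called, 884 passed at an unadjusted p under 0.05 and the smallest adjusted p was 0.482. All calls for the mean level below are therefore lost in that model. Without series 2 of AL 53 genes were called, without series 4 of AL 256, without series 6 of RF 429 and without series 9 of RF 20. Of 53 called genes followed one by one 35 lost their call without series 2, 21 without series 4, 18 without series 6, 45 without series 9 and 6 without the libraries that stood apart.

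Of the 15 female-biased genes measured, 5 rose under RF and none fell, all 15 had a positive log2 fold change, and their median was 1.10. Among those that rose were Cyp2a4, Cyp2b9, Cyp2c40 and Atp6v0d2. Leaving out the 3 libraries that stood apart, 7 rose, and with each series left out the number ran from 1 (without series 4 or 9) to 6 (without series 6). Of the 19 male-biased genes, 18 had a negative log2 fold change with a median of -0.29, and 1 fell.

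Cyp2b9, a P450 of steroid and drug oxidation (ENSMUSG00000040660, chr7:26173411-26210661) measured at most 0.464 CPM under AL and had a median of 2.58 CPM under RF. Of its RF libraries 11 of 12 exceeded every AL library, and its log2 fold change was 4.08 ± 0.89 (SE, adjusted p = 0.00908). Cyp2c40, an arachidonic acid hydroxylase, had a median of 17.3 CPM under AL and 49.3 under RF, with 9 RF libraries above the highest AL one. Its log2 fold change was 1.78 ± 0.44 (adjusted p = 0.0208), and 0.56 without series 9 of RF. The libraries of series 9 ran from 46.7 to 180 CPM and those of series 6 from 3.97 to 58.9. Cyp2a4, a steroid hydroxylase, rose by 3.33 ± 0.78 (adjusted p = 0.0145), but 1 library carried much of its level: series 6 of RF at ZT20 had 280 CPM, while the highest library of series 9 had 12.8 and of AL 0.997. Cyp2a4 and Cyp2c40 have near-identical neighbours, and how reads were split between such copies is not known. Atp6v0d2, a subunit of the vacuolar proton pump, rose from a median of 1.27 to 3.57 CPM (log2 1.53 ± 0.30, adjusted p = 0.00304).

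The male-biased gene that fell was Moxd1, a monooxygenase of the dopamine beta-hydroxylase family. Its level spread from 0.0911 to 24.5 CPM under AL and from 0 to 18.7 under RF. The medians were 3.27 and 0.066 CPM, 11 of the 12 RF libraries lay below the AL median, and the remaining one, at 18.7 CPM, was series 6 at ZT12. Susd4, a complement regulator, and Cyp7b1, the oxysterol hydroxylase of the alternative bile acid pathway, did not pass the test. Susd4 had a median of 41 CPM under AL and 25.1 under RF, and all 12 RF libraries lay below the AL median (log2 -0.85 ± 0.27, adjusted p = 0.0833). Cyp7b1 had medians of 404 and 185 CPM (log2 -0.95 ± 0.37, adjusted p = 0.194).

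Of 28 PPARA targets measured, 2 rose, none fell and 26 had a positive log2 fold change, with a median of 0.26. The 2 were the fatty acid omega-hydroxylases Cyp4a14 and Cyp4a10. Cyp4a14 (ENSMUSG00000028715, chr4:115486200-115496142, minus strand) ran from 3.35 to 97.8 CPM under AL with a median of 9.16, and from 4.34 to 338 under RF with a median of 226. Under RF 9 libraries lay above all AL libraries, and the 1 RF library below the AL median was series 6 at ZT12, the library with high Saa1, at 4.34 CPM. Its log2 fold change was 3.08 ± 0.64 (adjusted p = 0.00524). The AL series differed too: the median was 6.63 CPM in series 2 and 61.9 in series 4, against 226 and 213 in the RF series.

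Cyp4a10 (ENSMUSG00000066072, chr4:115518264-115533649) behaved alike, with a median of 44.3 CPM under AL and 291 under RF and a log2 fold change of 2.17 ± 0.45 (adjusted p = 0.00524). Its counts may be shared with close copies in the same gene cluster. Series 2 of AL was the lowest of the 4 series in 22 of the 28 PPARA targets, and without it none was called. Without series 9 none was called, and without series 4 or series 6 there were 3 that rose. Members that did not pass included Acadm, the medium-chain acyl-CoA dehydrogenase of mitochondrial beta-oxidation, with medians of 218 and 263 CPM and all 12 RF libraries above the AL median (log2 0.31 ± 0.09, adjusted p = 0.0689). Acot3, a peroxisomal acyl-CoA thioesterase, had medians of 1.49 and 4.09 CPM (log2 1.58 ± 0.47, adjusted p = 0.0656).

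**Figure D1:**
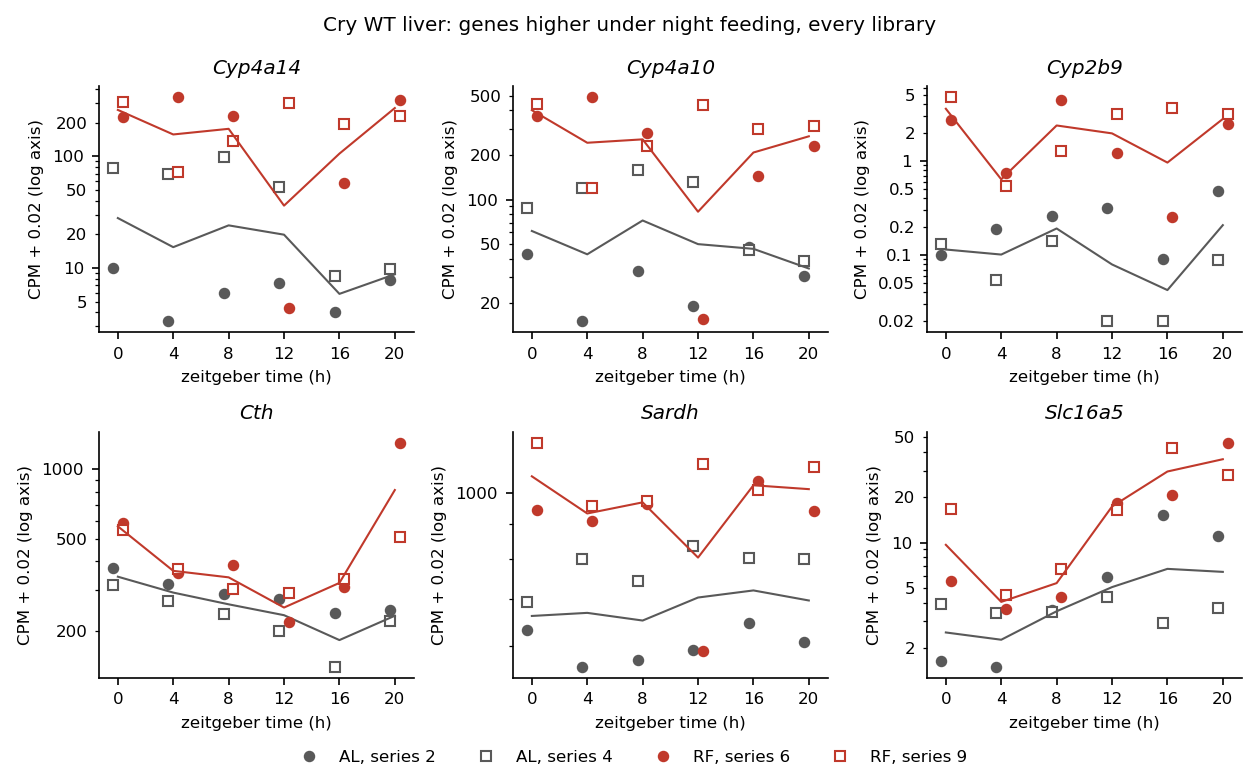
Levels of 6 genes higher under night feeding in every Cry WT library against zeitgeber time, in TMM-scaled CPM plus an offset of 0.02 on a log axis; symbols give the replicate series and lines the geometric mean of the 2 libraries per time. For Cyp2b9, 11 of the 12 RF libraries lie above the highest AL library, and for Cyp4a14 the RF library of series 6 at ZT12 lies at 4.34 CPM among the AL libraries.

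Of the 22 genes of the amino acid catabolism and urea cycle list 4 rose under RF and none fell, and all 22 had a positive log2 fold change with a median of 0.35. Those that rose were Aass, Hpd, Tdo2 and Cth. At an unadjusted p under 0.05 there were 14. In the fit lacking the 3 libraries that stood apart, 5 rose, without series 2 also 5, without series 6 2, and without series 4 or series 9 none.

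Aass, the bifunctional first enzyme of lysine breakdown, ran from 240 to 438 CPM under AL and from 307 to 645 under RF, with medians of 298 and 448. All 12 RF libraries exceeded the AL median and 6 the highest AL library (log2 0.50 ± 0.11, adjusted p = 0.00677). Hpd, the tyrosine pathway's hydroxyphenylpyruvate dioxygenase, rose from a median of 1300 to 1850 CPM, with 7 RF libraries above the highest AL library (log2 0.49 ± 0.12, adjusted p = 0.0164). Tdo2, which opens the tryptophan ring, rose from 1230 to 1630 CPM by 0.40 ± 0.11 (adjusted p = 0.0399).

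Cth, the cystathionine lyase of the pathway that passes methionine sulfur to cysteine, ran from 140 to 373 CPM under AL and from 219 to 1300 under RF, with medians of 258 and 364 (log2 0.71 ± 0.17, adjusted p = 0.0185). Ahcy, which hydrolyses S-adenosylhomocysteine in the same pathway, rose from 1070 to 1310 CPM at the median (log2 0.43 ± 0.11, adjusted p = 0.0218). These were the 2 called members of the 13 in the methionine and choline list, whose median log2 fold change was 0.08. Sardh, the mitochondrial sarcosine dehydrogenase (ENSMUSG00000009614, chr2:27188393-27248337, minus strand), had 11 of 12 RF libraries above the highest AL library. It measured from 559 to 838 CPM under AL and from 589 to 1180 under RF, with medians of 670 and 968. The log2 fold change was 0.49 ± 0.09 (adjusted p = 0.00158), and the RF library among the AL values was again series 6 at ZT12.

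A group of 20 genes of branched-chain amino acid breakdown, put together after values had been seen, held 20 positive log2 fold changes with a median of 0.18. Of these 2 rose: Bckdhb, a subunit of the branched-chain keto acid dehydrogenase, from a median of 52.2 to 69.3 CPM (log2 0.48 ± 0.10, adjusted p = 0.00601), and Ivd, which oxidises the leucine product isovaleryl-CoA, from 217 to 251 CPM (log2 0.26 ± 0.07, adjusted p = 0.0429). Idh2, the NADP-dependent mitochondrial isocitrate dehydrogenase, rose from 83.7 to 115 CPM with 10 RF libraries above the highest AL one (log2 0.42 ± 0.09, adjusted p = 0.00824). Klf15, a transcription factor that drives amino acid breakdown genes, rose from 107 to 150 CPM by 0.42 ± 0.11 (adjusted p = 0.0354) and was the only called member of the 17 insulin and FOXO genes. Of 14 gluconeogenesis genes 13 had a positive log2 fold change, none passed and 9 had an unadjusted p under 0.05.

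Few bile acid and drug-handling genes were called, while most members of both lists had a positive log2 fold change. Among 18 bile acid genes 15 were positive (median 0.15), with 6 higher and 1 lower at an unadjusted p under 0.05. Among 21 xenobiotic genes 17 were positive (median 0.22), with 9 higher and 2 lower at that threshold. Of 18 bile acid genes 1 rose, Slco1a4, a sinusoidal organic anion uptake carrier, from 36.9 to 71.4 CPM at the median (log2 0.95 ± 0.23, adjusted p = 0.0199). Of 21 xenobiotic genes 2 rose, Cyp2b9 and Cyp2c54. Cyp2c54 had medians of 206 and 349 CPM (log2 0.64 ± 0.17, adjusted p = 0.0324). After removal of the 3 libraries that stood apart, 6 xenobiotic genes rose, without series 4 or series 9 none, without series 6 5 and without series 2 1.

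Genes outside those lists showed shifts of similar size. Cyp39a1, a hydroxylase of 24-hydroxycholesterol, rose from 21.8 to 47.9 CPM (log2 0.97 ± 0.22, adjusted p = 0.013), and Ugt1a9, a glucuronosyltransferase, from 36.1 to 70.4 CPM (log2 0.85 ± 0.20, adjusted p = 0.0172). Slc16a5, a monocarboxylate transporter (ENSMUSG00000045775, chr11:115462474-115474398), ran from 1.48 to 15.2 CPM under AL and from 3.63 to 45.7 under RF, with medians of 3.59 and 16.5. All 12 RF libraries exceeded its AL median, and it rose by 1.52 ± 0.30 (adjusted p = 0.00304). Acss3, a mitochondrial short-chain acyl-CoA synthetase, rose from 6.73 to 17.6 CPM with 10 RF libraries above the highest AL one (log2 1.26 ± 0.25, adjusted p = 0.00327). Fmo1, a monooxygenase of drug metabolism, rose from a median of 169 to 253 CPM, by 0.54 ± 0.10 (adjusted p = 0.00215). Gsto1, a glutathione transferase, rose from 78 to 99.2 CPM (log2 0.40 ± 0.10, adjusted p = 0.0208), and Aqp11, an intracellular aquaporin, from 33 to 43.8 CPM (log2 0.33 ± 0.09, adjusted p = 0.0287). Epcam, the called member of 9 cholangiocyte markers, rose from 1.39 to 2 CPM by 0.67 ± 0.17 (adjusted p = 0.0294).

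Of 18 interferon response genes all 18 had a negative log2 fold change, with a median of -0.70. Of these 5 fell, among them Irf7, Oas1a and Rtp4, and 17 had an unadjusted p under 0.05. The 9 genes grouped here as immunity-related GTPases, with the very large GTPase Gvin1 among them, all fell, with a median of -1.21. Of 11 guanylate-binding proteins 7 fell, with a median of -1.16. The GTPase families were put together after values had been seen, and Igtp, Irgm1 and Gbp3 were named from them in the same way.

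These genes moved with series 2 of AL. It was the highest of the 4 series in all 18 interferon response genes, in all 9 immunity-related GTPases and in 10 of the 11 guanylate-binding proteins. Without series 2 none of the 18, none of the 9 and 1 of the 11 fell. Without series 4 the counts were 11, 9 and 9, without series 6 1, 3 and 2, and without series 9 1, 2 and 2. With the 3 libraries that stood apart left out, among them series 2 at ZT12, the counts were 4, 2 and 3 and the median log2 fold change of the 9 GTPases was -0.62. The part of series 2 in the feeding difference was not tested beyond these fits.

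Gbp2b, a guanylate-binding protein (ENSMUSG00000040264, chr3:142594847-142619179), had the smallest adjusted p among them. It ran from 2.08 to 19.3 CPM under AL with a median of 8.99, and from 0.471 to 9.43 under RF with a median of 2.41. It was below the AL median in 11 of 12 RF libraries and lower at all 6 times. Its log2 fold change was -2.26 ± 0.35 (adjusted p = 0.000149). Gbp2b and Dynlt1b were the 2 of these 53 called genes whose call held in each of the other 21 refits, the random-effect model apart.

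Igtp, an immunity-related GTPase (ENSMUSG00000078853, chr11:58199556-58207591), showed the pull of 1 library. It had 532 CPM in series 2 of AL at ZT12 and 21.2 in series 4 at the same time, while the RF libraries ran from 19.5 to 48.2. The medians were 34.6 under AL and 24.5 under RF, and the log2 fold change was -1.21 ± 0.26 (adjusted p = 0.00656). Gvin1, a very large interferon-inducible GTPase, had 30.6 CPM in that library, its highest, and 10 of 12 AL libraries lay above the highest RF library of 4.36 CPM (log2 -1.90 ± 0.44, adjusted p = 0.0145). It was not called without series 2 (log2 -1.09, adjusted p = 0.377), without series 6 or 9, or without the libraries that stood apart (log2 -1.57, adjusted p = 0.0518). Gbp3 fell by 1.28 ± 0.29 on the log2 scale (adjusted p = 0.00964), with 131 CPM in series 2 at ZT12 against a median of 8.38 under RF.

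Among the regulators, Irf7, the factor that amplifies type I interferon genes (ENSMUSG00000025498, chr7:141262706-141266481, minus strand), ran from 32.8 to 371 CPM under AL and from 17.2 to 53.2 under RF, with medians of 44.6 and 30.8. The median within series 2 was 100 CPM and within series 4 43.2, and the RF series had 26.7 and 38.7. The log2 fold change was -1.19 ± 0.24 (adjusted p = 0.00327). Oas1a, which makes the oligoadenylates that activate RNase L, had medians of 5.27 and 2.47 CPM (log2 -1.20 ± 0.25, adjusted p = 0.005). Rtp4, an interferon-induced chaperone of receptors, had medians of 17.1 and 11.5 CPM (log2 -0.78 ± 0.18, adjusted p = 0.013).

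**Figure D2:**
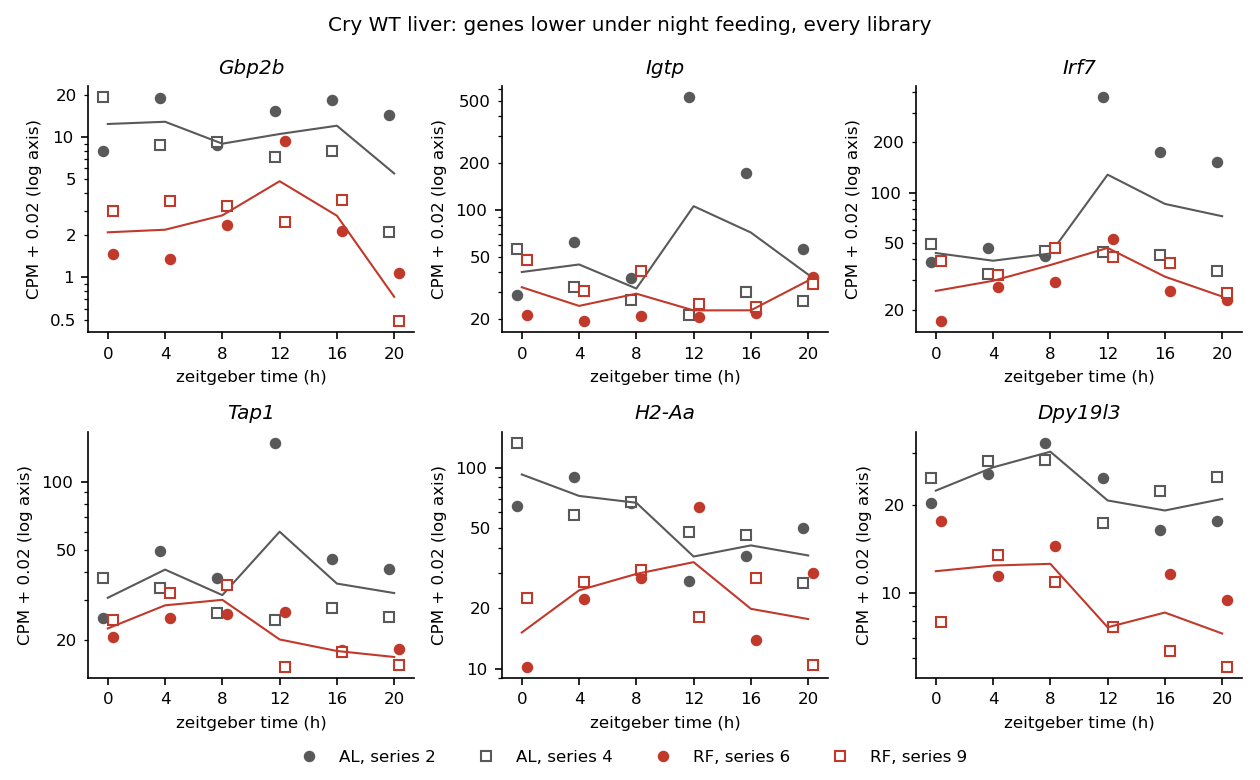
Levels of 6 genes lower under night feeding in every Cry WT library against zeitgeber time, in TMM-scaled CPM plus an offset of 0.02 on a log axis; symbols give the replicate series and lines the geometric mean of the 2 libraries per time. Igtp and Irf7 peak at 532 and 371 CPM in series 2 of AL at ZT12, while Dpy19l3 is lower under RF in both series.

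Promoters of the called genes are shown because the interferon-stimulated response element (ISRE) is the DNA sequence that STAT and IRF complexes bind. The ISRE was searched as GAAANNGAAA on both strands, within 250 bases before and 50 after the RefSeq start on GRCm38.p6. It occurred in 21 of the 89 genes with lower level whose symbol matched a promoter, or 23.6%, in 3.17% of 63 matched genes with higher level, in 3.84% of 11197 matched tested genes and in 3.99% of all 27025 promoters. A STAT element written TTCNNNGAA occurred in 20.2% of the lower genes, 3.17% of the higher genes, 8.54% of tested genes and 9.55% of all promoters, and 8 lower genes held both. The clock's E-box CACGTG occurred in 2.25% of the lower genes, 17.5% of the higher genes, or 11 of 63, 11.3% of tested genes and 8.09% of all promoters. The ISRE share was 9.63% among genes lower without the libraries that stood apart and 1 of 9 among those lower without series 2 of AL. A match of letters is a description and not a binding site. The 5 promoters below belong to lower genes of 3 families, with ISRE matches in capitals.
Gbp2b, chr3:142594597-142594896, plus strand: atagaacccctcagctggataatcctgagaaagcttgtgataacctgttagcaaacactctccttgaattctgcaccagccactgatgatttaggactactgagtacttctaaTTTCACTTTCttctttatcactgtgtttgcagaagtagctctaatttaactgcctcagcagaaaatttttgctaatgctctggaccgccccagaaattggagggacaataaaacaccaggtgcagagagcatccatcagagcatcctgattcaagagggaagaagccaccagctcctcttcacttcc
Gbp3, chr3:142559794-142560093, plus strand: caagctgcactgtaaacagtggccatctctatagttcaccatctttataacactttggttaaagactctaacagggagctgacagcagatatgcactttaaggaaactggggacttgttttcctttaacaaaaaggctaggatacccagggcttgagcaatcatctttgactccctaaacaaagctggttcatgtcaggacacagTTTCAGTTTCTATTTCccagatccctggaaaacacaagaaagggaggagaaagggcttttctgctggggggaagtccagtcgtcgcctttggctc
Igtp, chr11:58199306-58199605, plus strand: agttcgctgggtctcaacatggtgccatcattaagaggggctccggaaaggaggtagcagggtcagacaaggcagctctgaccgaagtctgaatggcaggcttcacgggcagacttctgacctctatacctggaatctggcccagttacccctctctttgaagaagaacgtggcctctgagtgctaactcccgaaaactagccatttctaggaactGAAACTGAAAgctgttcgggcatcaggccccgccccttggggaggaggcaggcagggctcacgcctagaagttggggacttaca
Irgm1, chr11:48871371-48871670, minus strand: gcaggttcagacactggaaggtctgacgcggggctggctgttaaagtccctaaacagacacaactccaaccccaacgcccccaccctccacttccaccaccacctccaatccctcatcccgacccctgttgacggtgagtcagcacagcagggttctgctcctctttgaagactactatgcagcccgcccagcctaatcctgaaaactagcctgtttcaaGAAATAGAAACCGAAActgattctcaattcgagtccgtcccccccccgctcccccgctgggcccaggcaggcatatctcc
Oas1a, chr5:120907476-120907775, minus strand: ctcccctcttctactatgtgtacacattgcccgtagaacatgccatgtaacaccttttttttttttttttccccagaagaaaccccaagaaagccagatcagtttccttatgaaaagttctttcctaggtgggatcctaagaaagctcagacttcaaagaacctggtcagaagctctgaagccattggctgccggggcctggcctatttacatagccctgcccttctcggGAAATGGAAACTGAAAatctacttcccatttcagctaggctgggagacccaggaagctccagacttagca
In Gbp3, Irgm1 and Oas1a the capitals are 2 overlapping matches. The match nearest the start began 14 bases before it in Oas1a, 24 in Irgm1, 34 in Igtp, 39 in Gbp3 and 137 in Gbp2b. Irgm1, the GTPase that restrains the other members of its family, fell by 0.67 ± 0.16 on the log2 scale (adjusted p = 0.0193).

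Antigen presentation genes were grouped by class, and members named, after values had been seen. Of 24 class I genes 6 fell, 23 had a negative log2 fold change and the median was -0.37. Tap1, a subunit of the peptide transporter into the endoplasmic reticulum, ran from 24.5 to 148 CPM under AL and from 15.3 to 35 under RF, with medians of 35.9 and 22.7. All 12 RF libraries lay below its AL median (log2 -0.86 ± 0.15, adjusted p = 0.00158). The immunoproteasome subunits Psmb8 and Psmb9 fell by 0.78 ± 0.17 (adjusted p = 0.00824) and by 0.93 ± 0.19 (adjusted p = 0.00327), and the class Ib molecule H2-Q7 by 0.65 ± 0.14 (adjusted p = 0.00966), on the log2 scale. Without series 2 of AL none of the 24 fell, without series 4 14, without series 6 2 and without series 9 1.

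Of 10 class II genes 8 fell, with a median log2 fold change of -1.07, and without the libraries that stood apart the count was 8. Without series 2 of AL 3 fell, without series 4 or series 6 7, and without series 9 1. Series 2 was the highest of the 4 series in 5 of the 10. H2-Aa, the alpha chain of the class II molecule (ENSMUSG00000036594, chr17:34282744-34287823, minus strand), ran from 26.7 to 133 CPM under AL and from 10.2 to 63.5 under RF, with medians of 54.3 and 24.8. The 63.5 CPM came from series 6 at ZT12, and the other 11 RF libraries lay below the AL median. Its log2 fold change was -1.20 ± 0.23 (adjusted p = 0.00304), with -1.10 ± 0.22 for its partner H2-Ab1 (adjusted p = 0.00418) and -1.18 ± 0.23 for H2-Eb1 (adjusted p = 0.00304). Ciita, the master regulator of class II genes, had medians of 3.93 and 1.93 CPM (log2 -1.15 ± 0.26, adjusted p = 0.00966).

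Kupffer cells, B cells and other cells of the liver carry class II molecules. The summed level of the 11 Kupffer cell markers ran from 383 to 1060 CPM under AL with a median of 665, and from 118 to 1190 under RF with a median of 358, where the highest was series 6 at ZT12. All 11 had a negative log2 fold change with a median of -0.76, none passed the test, 10 had an unadjusted p under 0.05, and 9 fell once the 3 libraries noted above were left out. Cd5l, a secreted macrophage protein, had medians of 141 and 70.7 CPM, and 10 of 12 RF libraries lay below the lowest AL library (log2 -0.94 ± 0.29, adjusted p = 0.075). The Kupffer cell lectin Clec4f had medians of 133 and 74 CPM (log2 -0.76 ± 0.24, adjusted p = 0.0911) and the apoptotic cell receptor Timd4 of 11.4 and 5.85 CPM (log2 -0.92 ± 0.30, adjusted p = 0.103). In bulk tissue, fewer cells of a type and less RNA per cell cannot be told apart.

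B and T cell markers summed to a median of 12.5 CPM under AL and 9.17 under RF, and 1 of 12 fell: Cd4, the co-receptor for class II, from 2.92 to 1.34 CPM at the median (log2 -1.02 ± 0.20, adjusted p = 0.00304). The 11 neutrophil markers had medians of 9.45 and 2.81 CPM in sum with a highest value of 164 in series 6 of RF at ZT12, and none of the 5 that could be tested passed. Their median log2 fold change was -1.44 and all 5 had an unadjusted p under 0.05, while 5 fell without the libraries that stood apart. Erythroid markers, 7 in number, summed to 240 and 145 CPM at the median. None of the 6 tested passed, with a median log2 fold change of -0.96 and 3 at an unadjusted p under 0.05. That median turned to 1.54 without series 4 of AL. It was -1.81 without series 2 of AL, and -1.36 and -1.19 without series 6 and 9 of RF. Cell cycle genes had a median log2 fold change of -0.61, none of 18 passed and 9 had an unadjusted p under 0.05. Leaving out the 3 libraries that stood apart, 5 fell. Whether cell numbers underlie the class II difference was not tested.

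**Figure D3:**
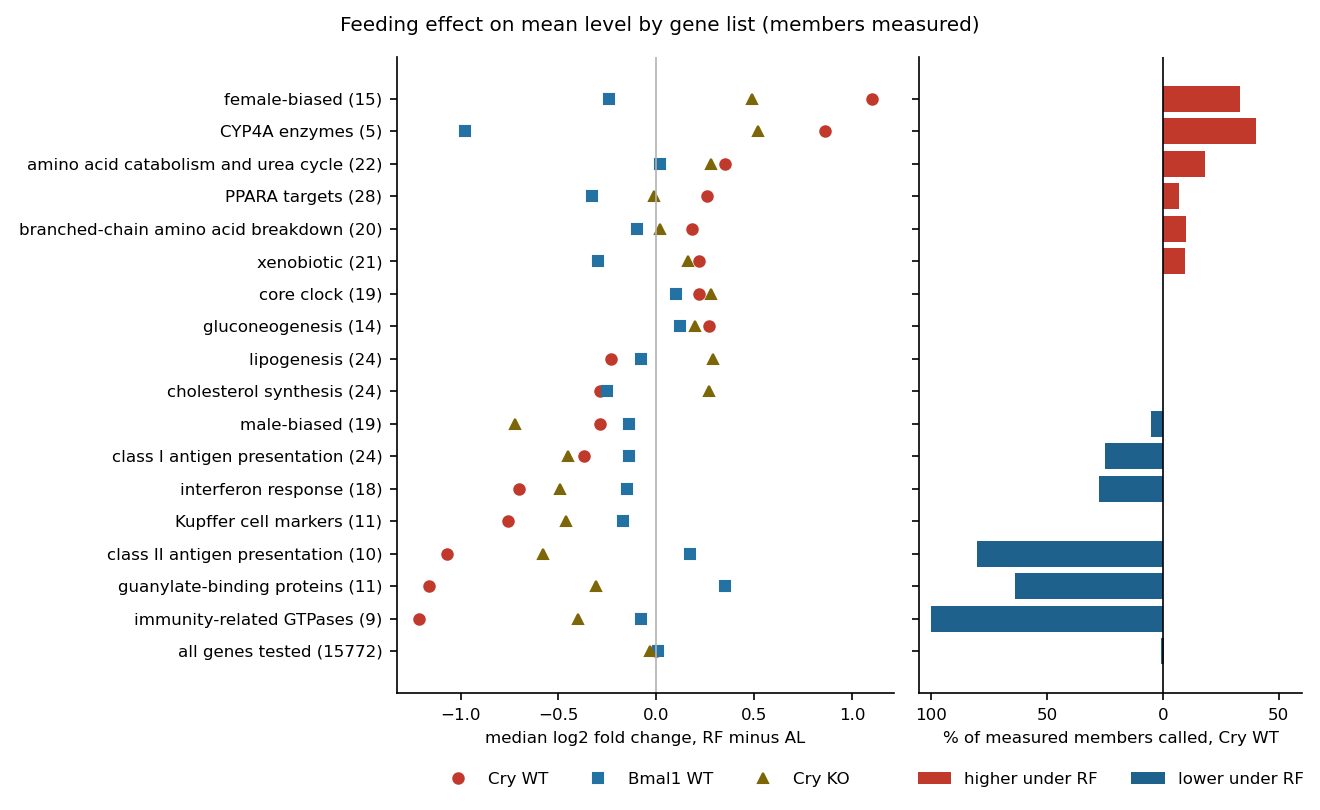
Left, median log2 fold change between RF and AL of selected gene lists in Cry WT, Bmal1 WT and Cry KO, with the number of measured members in brackets; right, the percentage of members called higher or lower in Cry WT. Among the lists drawn, medians in Cry WT run from -1.21 for the immunity-related GTPases to 1.10 for the female-biased genes, with 0.00 over all genes tested.

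Some genes that were lower belonged to none of these groups. Dpy19l3, a C-mannosyltransferase of the endoplasmic reticulum (ENSMUSG00000043671, chr7:35685165-35754454, minus strand), ran from 16.3 to 32.4 CPM under AL and from 5.57 to 17.6 under RF, with medians of 24.6 and 10.2. Of the RF libraries 11 of 12 lay below the lowest AL library, and the 2 AL series had medians of 22.4 and 24.7 CPM. The log2 fold change was -1.20 ± 0.22 (adjusted p = 0.00201). C4a, a complement component with a near-identical neighbour, had medians of 81.8 and 21.2 CPM (log2 -1.43 ± 0.35, adjusted p = 0.0199). Snhg11, a long noncoding snoRNA host, had medians of 18.4 and 10.3 CPM with all 12 RF libraries below the AL median (log2 -0.89 ± 0.23, adjusted p = 0.0314).

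Small structural RNAs gave large negative folds that depended on 1 series. Of 8 short RNAs without a poly(A) tail 6 fell, with a median log2 fold change of -4.18. Rny3, a Y RNA of the Ro particle, ran from 1.63 to 26.2 CPM in series 2 of AL, whereas no library of series 4 exceeded 0.0672 CPM and those of RF series 6 were all at 0. Rn7sk, the RNA that holds the elongation factor P-TEFb inactive, had a median of 21.5 CPM in series 2, 0.826 in series 4, 0.358 in series 6 and 1.62 in series 9. Without series 2 the direction turned, to log2 fold changes of 1.12 for Rny3 and 0.72 for Rn7sk with adjusted p of 1 and 0.876, and none of the 8 fell. Without series 6 or the libraries that stood apart 1 fell, without series 9 none and without series 4 6. The libraries were made with a stranded mRNA kit that selects poly(A) RNA.

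At single times, with 2 libraries per regimen, genes were called only at ZT12 and ZT20. At ZT20 68 genes passed (0.431%), 48 higher (0.304%) and 20 lower (0.127%). At ZT12 37 passed (0.235%), 20 higher (0.127%) and 17 lower (0.108%). In edgeR no gene passed at ZT0, ZT4, ZT8 or ZT16, where 1081, 156, 223 and 427 had an unadjusted p under 0.05. The joint test of whether the feeding effect varied with time called none, with 695 at an unadjusted p under 0.05 and a smallest adjusted p of 0.0576; DESeq2 called 16.

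At ZT20, late in the night and thus late in the feeding window of RF mice, 4 of 19 core clock genes differed: Tef, Nr1d2 and Ciart were higher and Npas2 was lower. Tef, a PAR bZIP output factor, measured 75.7 and 63.4 CPM in the AL libraries and 116 and 151 in the RF libraries (log2 0.94, adjusted p = 0.0108). Nr1d2, or REV-ERB beta, measured 11 and 10.2 CPM under AL and 31.7 and 28.8 under RF (log2 1.51, adjusted p = 0.0421). Ciart, a repressor of the CLOCK complex, measured 1.94 and 0.695 CPM under AL and 4.64 and 6.87 under RF (log2 2.14, adjusted p = 0.0465). Npas2, a partner of BMAL1 and target of the REV-ERBs, measured 6.42 and 12.7 CPM under AL and 2 and 3.26 under RF (log2 -1.86, adjusted p = 0.0122).

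Of the 22 amino acid genes 3 were called higher at ZT20 and the median log2 difference was 0.89. Cth measured 246 and 220 CPM under AL against 1300 and 510 under RF (log2 1.96, adjusted p = 0.0233), and Tdo2 916 and 941 CPM against 2190 and 1780 (log2 1.09, adjusted p = 0.0465). Sdsl, a serine dehydratase-like enzyme named after its values were seen, had 13.4 and 9.03 CPM against 74.1 and 20.7 (log2 2.08, adjusted p = 0.0392). Klf15 had 73.8 and 78.9 CPM under AL and 173 and 192 under RF (log2 1.26, adjusted p = 0.0233).

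Of the 24 lipogenesis genes 1 was called lower at ZT20 and none higher, and of the 24 cholesterol synthesis genes none was called. The median log2 difference of the lipogenesis genes was -0.79 at ZT20, -0.69 at ZT12 and 0.53 at ZT0, and that of the cholesterol genes -0.81 at ZT20. Series 2 of AL was the highest of the 4 series in 17 and 21 of them, and without it the medians for the mean level went from -0.23 to 0.08 and from -0.29 to -0.01. Acaca, the acetyl-CoA carboxylase that commits carbon to fatty acids, was lower, with 463 and 179 CPM under AL and 82.5 and 133 under RF (log2 -1.58, adjusted p = 0.0465), and without series 2 its log2 difference was -0.72 (adjusted p = 0.758). Fabp5, a fatty acid binding protein named after its values were seen, had 118 and 46 CPM under AL and 12.3 and 3.81 under RF (log2 -3.35, adjusted p = 0.0476). Fasn, the fatty acid synthase, had 3120 and 1010 CPM against 471 and 796 at ZT20 and did not pass on mean level (log2 -0.51 ± 0.25, adjusted p = 0.338). Among the 10 genes with the smallest p-values for variation of the feeding effect with time, Tk1, a thymidine kinase, measured 18 and 16.7 CPM under AL against 53.1 and 54.2 under RF at ZT20 (log2 1.63, adjusted p = 0.00532). Slc15a4, a lysosomal histidine transporter, had 16.6 and 17.2 CPM against 39.1 and 46.9 (log2 1.35, adjusted p = 0.00532).

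The ZT20 calls rested on few libraries. Without series 2 of AL none was called at ZT20, without series 4 10, without series 6 9 and without series 9 64. In the fit lacking the 3 libraries that stood apart, none of which is of ZT20, 115 were called. That fit also lacked series 4 of Bmal1 KO under RF at ZT20, among the libraries of other groups. Npas2 kept a log2 difference between -2.26 and -1.28 with each series left out, and Tef between 0.73 and 1.14. N4bp2l1 (log2 1.64, adjusted p = 0.0107) and Gpat4, a glycerolipid acyltransferase named after its values were seen (log2 1.27, adjusted p = 0.0233), were also higher at ZT20 and kept the direction in the same fits.

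At ZT12 the calls followed 2 libraries. The higher genes included Steap4, Tifa and Irak3, genes of the inflammatory response, and the lower ones Igtp, Irgm1 and Tap1. Steap4, a metalloreductase, measured 3160 CPM in series 6 of RF, the library with high Saa1, and 261 in series 9, against 193 and 119 under AL. Igtp measured 532 CPM in series 2 of AL, the library with high Isg15, and 21.2, 20.6 and 25.1 in the other 3. After removal of the 3 libraries that stood apart, no gene was called at ZT12, and the log2 difference was 0.25 for Igtp, 0.02 for Irgm1 and -0.78 for Tifa, each opposite in sign to that with them. Without series 2 or series 6 none was called, without series 4 76 and without series 9 271.

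Rhythms were compared by a cosine of 24 h fitted to each regimen, with a gene called rhythmic at an adjusted p under 0.05 and a range from trough to peak of 0.5 log2 or more. Under RF 2985 genes (18.9%) were rhythmic and under AL 1052 (6.67%). The 782 genes rhythmic under both made up 74.3% of the AL genes and 26.2% of the RF genes. The difference in number came with a small difference in range: over all genes the median range was 0.52 log2 under RF and 0.41 under AL, and among the shared genes 1.28 and 1.18. The peaks of the shared genes lay within 3 h of each other in 749 (95.8%), with a median shift of 0.33 h toward later under RF. Without series 6 534 genes were rhythmic under RF, without series 9 1547, without series 2 122 under AL and without series 4 328. Each of these fits kept 6 libraries of that regimen, 1 per time. The lower counts therefore cannot be told apart from the loss of libraries. With the 3 libraries that stood apart left out 2358 were rhythmic under RF and 561 under AL.

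The difference in rhythm itself was called for 14 genes (0.0888%), with 1046 at an unadjusted p under 0.05. They included S100a9, a neutrophil alarmin, with a range of 6.23 log2 under RF and 2.67 under AL (adjusted p = 0.00537), Tifa with 3.93 and 1.13 (adjusted p = 0.00651) and Irak3 with 4.93 and 0.81 (adjusted p = 0.00797). All 3 peaked under RF within 1 h of ZT12, where series 6 was high: S100a9 reached 59.8 CPM there while series 9 stayed at or below 0.717. Leaving out the 3 libraries that stood apart, none of the rhythm differences was called.

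**Figure D4:**
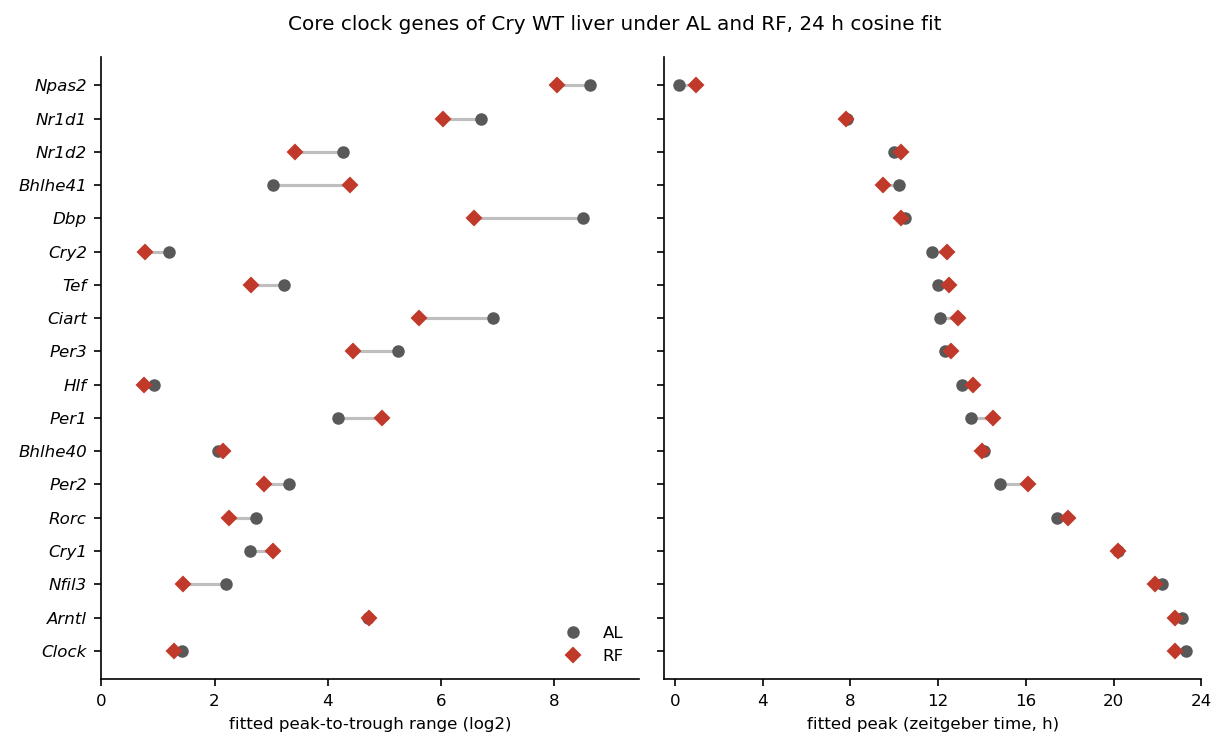
Fitted peak-to-trough range and peak time of the 18 core clock genes rhythmic under both regimens in Cry WT, with AL as circles and RF as diamonds. The peaks of each gene lie close together, from Npas2 near ZT0 to Clock near ZT23, and the ranges of Dbp and Ciart are smaller under RF.

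The core clock kept its order under both regimens. Of 19 genes 18 were rhythmic under both, none differed in mean level with 6 at an unadjusted p under 0.05, and the median log2 fold change was 0.22. Arntl had a range of 4.72 log2 with a peak at ZT 23.1 under AL and 4.73 at ZT 22.8 under RF, with 1.51 to 36.3 CPM and 1.43 to 37.4. Clock, its partner, peaked at ZT 23.3 and 22.8 with ranges of 1.43 and 1.28. Nr1d1, or REV-ERB alpha, peaked at ZT 7.85 under AL and 7.78 under RF with ranges of 6.72 and 6.04. Dbp, another PAR bZIP factor, peaked at ZT 10.5 and 10.3 with ranges of 8.51 and 6.58. None of these 4 passed the test of a rhythm difference.

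The repressors followed later in the cycle. Per1 peaked at ZT 13.5 under AL and 14.5 under RF, Per3 at 12.3 and 12.6, and Per2 at 14.8 and 16.1. Per2 was not called at any time, with a log2 difference of 1.33 at ZT0 and 0.49 at ZT20. Cry1 peaked at ZT 20.2 under both regimens with ranges of 2.63 and 3.04, and Cry2 at 11.7 and 12.4 with ranges of 1.20 and 0.77. The levels of Cry1 ran from 5.95 to 51.4 CPM under AL and from 6.33 to 71.4 under RF, and those of Cry2 from 18.9 to 56.8 and from 21.9 to 60.7. In Cry KO they still ran from 5.38 to 12.7 CPM and from 13.1 to 32.0 CPM over both regimens, so reads from Cry1 and Cry2 were still counted there. The counts of Cry1 and Cry2 alone do not check the genotype labels.

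The feeding effect of Cry WT was then set beside that of Bmal1 WT and of Cry KO, which share no library with it. Bmal1 WT had 2476 called genes (15.7%), 1471 higher (9.33%) and 1005 lower (6.37%). Cry KO had 2863 (18.2%), 800 higher (5.07%) and 2063 lower (13.1%). In both groups too no series number occurs under both regimens, so regimen and series cannot be told apart. The shallowest library held 7455460 counts in Bmal1 WT and 1478963 in Cry KO. Across the 15772 genes the log2 fold changes of Cry WT correlated with those of Bmal1 WT at r = -0.237 and with those of Cry KO at r = 0.0943, as a description over genes that are not independent. Of the 250 genes called in Cry WT 92 had the same sign in Bmal1 WT, where 5 were called in the same and 12 in the opposite direction. In Cry KO 184 had the same sign, 45 were called in the same and 3 in the opposite direction. Of all genes tested, 15.7% were called in Bmal1 WT and 18.2% in Cry KO, in either direction. The share of all genes with the same sign was not computed. The 102 higher genes had a median of 0.56 in Cry WT, -0.06 in Bmal1 WT and 0.17 in Cry KO, and the 148 lower genes of -1.1, 0.17 and -0.32. Because these genes were called in Cry WT, larger medians are favoured there.

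The difference of the feeding effect was called between Cry WT and Bmal1 WT in 1222 genes (7.75%), of which 141 were among the 250. It was higher in Cry WT for 476 (3.02%) and lower for 746 (4.73%). Between Cry WT and Cry KO it was called in 999 (6.33%), with 34 of the 250, and was higher in Cry WT for 865 (5.48%) and lower for 134 (0.85%). Without series 2 of AL these fell to 250 and 3, without series 4 to 368 and 154, without series 6 to 556 and 3, and without series 9 to 635 and 539. In the fit lacking the 3 libraries that stood apart, 1279 and 12 were called. The same fit also lacked series 5 of Cry KO under RF at ZT4, a library of the compared groups. The 250 were called on Cry WT values that also enter both differences, so they are favoured among the genes called here.

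Against Bmal1 WT, Dpy19l3 had the smallest p of all genes. It measured 24.6 CPM under AL and 10.2 under RF in Cry WT at the median, while in Bmal1 WT its log2 fold change was 1.0 ± 0.22 (adjusted p = 0.00209) and in Cry KO 0.10 ± 0.23. The difference was -2.20 ± 0.31 to Bmal1 WT (adjusted p = 3.79e-05) and -1.30 ± 0.31 to Cry KO (adjusted p = 0.0193). Cyp4a14 had log2 fold changes of 3.08 ± 0.64 in Cry WT, -1.19 ± 0.59 in Bmal1 WT and 1.18 ± 0.59 in Cry KO, and the difference to Bmal1 WT was called (adjusted p = 0.00415) while that to Cry KO was not. Gbp2b had -2.26 ± 0.35, 0.38 ± 0.34 and -0.98 ± 0.37, with a called difference to Bmal1 WT (adjusted p = 0.00252).

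Some genes kept their direction across both genotypes of the Cry line. Slc16a5 rose by 1.56 ± 0.30 in Cry KO (adjusted p = 0.000458) against 1.52 ± 0.30 in Cry WT, with 0.02 ± 0.28 in Bmal1 WT. Acss3 rose by 1.33 ± 0.25 in Cry KO (adjusted p = 0.000362) and Slco1a4 by 1.78 ± 0.25 (adjusted p = 1.27e-05). Cth, Aass, Tdo2 and Sardh rose in Cry KO by 0.72, 0.43, 0.47 and 0.33 on the log2 scale. Irf7 and Oas1a fell there by 0.92 ± 0.25 (adjusted p = 0.00674) and by 0.99 ± 0.27 (adjusted p = 0.00714). In contrast C4a and Snhg11 rose in Cry KO, by 1.27 ± 0.35 (adjusted p = 0.00908) and 0.87 ± 0.26 (adjusted p = 0.0159), and both differences from Cry WT were called.

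**Figure D5:**
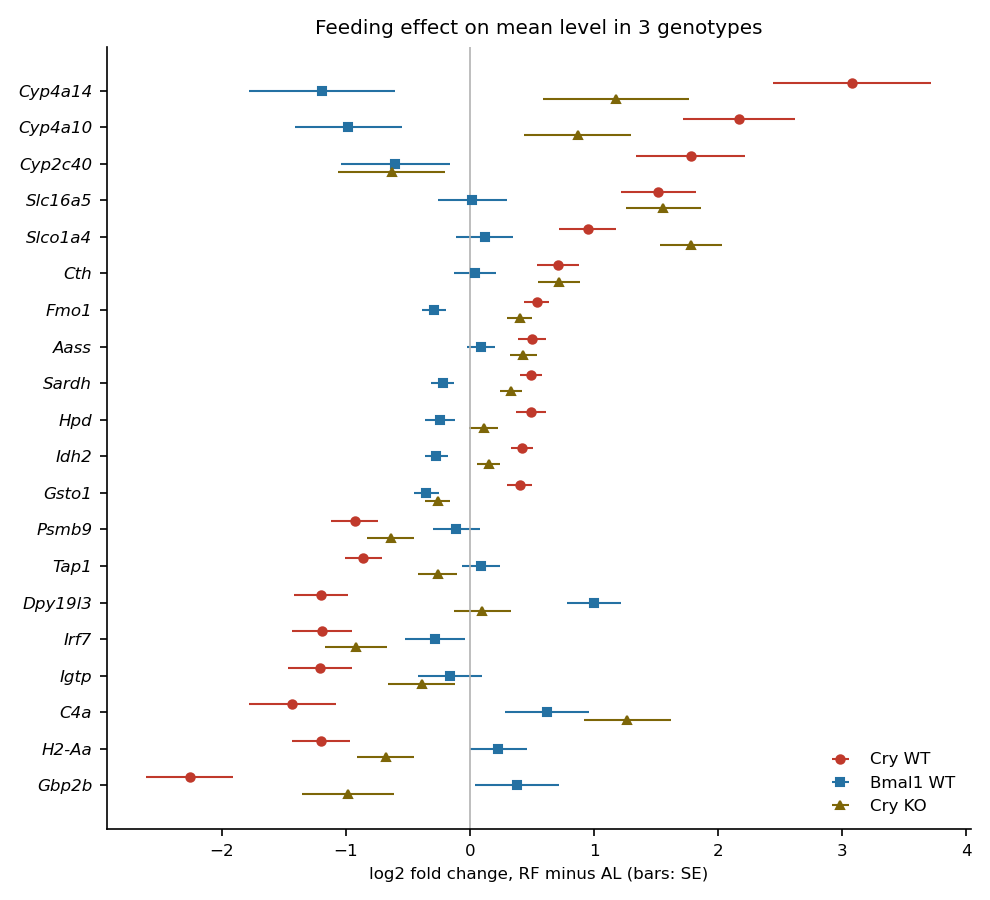
Log2 fold change between RF and AL, averaged over the 6 times, of 20 genes in Cry WT, Bmal1 WT and Cry KO, with bars of 1 SE. Slc16a5 lies at 1.52 in Cry WT and 1.56 in Cry KO, whereas Dpy19l3 is negative in Cry WT and positive in Bmal1 WT.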

How the data were processed

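Liver mRNA of 96 libraries was sequenced from a stranded poly(A) kit, per the labels' protocols. The authors deposited raw counts per gene, aligned with STAR 2.4.0i to mm10 per the submitters' processing notes. How reads were counted (program, strand, annotation) is not given in the sources used here, so overlapping, antisense and near-identical genes are uncertain. Of 55421 identifiers 55240 matched a GENCODE symbol, and the 181 others held 0.0244% of counts. 0 columns lacked a sample.

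edgeR 4.0.16 in R 4.3.3 kept 15772 of 35670 genes with any count (filterByExpr, minimum count 10, total 15), with TMM scaling. All 96 libraries entered 1 quasi-likelihood fit with 48 means, 1 per group and time, and the feeding effect was the RF minus AL difference averaged over 6 times. P-values were adjusted by Benjamini-Hochberg over all genes tested, with 0.05 as the threshold, and errors are SE. Levels are TMM-scaled CPM, while marker sums and the levels of Saa1, Isg15 and Ctrb1 that set libraries apart are plain CPM. Rhythms were fitted as a cosine of 24 h. The scripts were tested on simulated data. Promoters came from RefSeq.

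Genes were named by rule: the 15 highest and 15 lowest called genes with at least 5 CPM and 1 direction at all 6 times, the core clock, up to 4 members of each of 46 lists by p, and the 10 smallest p of feeding by time, of the rhythm difference and of each difference between groups. Others are marked as chosen after their values were seen. The members and lists were chosen with earlier results of these data known. Y-linked genes were left out, and some of the genes the rules chose are not named here. Alternatives were RLE scaling, leaving all genes unfiltered, keeping those with a mean of 1 CPM, fewer groups in the fit, DESeq2 1.42.0, limma 3.58.1 with voom, the series as a random effect, each series or time left out and, chosen after seeing the data, fits without the libraries that stood apart, without the shallowest library and with the Cry line alone.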

Additional observations from a re-analysis of the deposited data

Results flagged for a closer look

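The results here are named genes whose feeding effect in Cry WT differed from that in another group by a test of the difference itself, in edgeR with Benjamini-Hochberg adjustment. Values are the log2 feeding effect of Cry WT minus that of the other group. Genes named because they were called in Cry WT are favoured here, since the same Cry WT values enter the difference. Against Bmal1 WT the effect was higher in Cry WT by 0.83 for Fmo1, 3.90 for Cyp2a4, 6.21 for Cyp2b9, 2.38 for Cyp2c40, 0.94 for Cyp2c54, 1.66 for Atp6v0d2 and 3.15 for Cyp4a10. Further differences from Bmal1 WT were 4.26 for Cyp4a14, 1.54 for Cyp39a1, 1.47 for Ugt1a9, 1.5 for Slc16a5, 1.49 for Acss3, 0.72 for Hpd and 0.70 for Ahcy. Further differences from Bmal1 WT were 0.71 for Sardh, 0.67 for Bckdhb, 0.31 for Ivd, 0.69 for Idh2, 0.75 for Gsto1, 0.72 for Aqp11 and 0.83 for Epcam. Against Bmal1 WT the effect in Cry WT was lower, with differences of -2.64 for Gbp2b, -1.61 for Gbp3, -3.00 for Gvin1, -0.95 for Tap1, -0.83 for Psmb9, -1.43 for H2-Aa and -1.28 for H2-Ab1. Further differences from Bmal1 WT were -1.33 for H2-Eb1, -1.76 for Ciita, -0.98 for Cd4, -2.20 for Dpy19l3, -2.05 for C4a, -1.33 for Snhg11 and -10.46 for Rny3. Further differences from Bmal1 WT were -5.91 for Rn7sk, -6.52 for Snord118 and -0.77 for Dynlt1b. Against Cry KO the effect was higher in Cry WT by 2.41 for Cyp2c40, 0.67 for Gsto1 and 0.42 for Aqp11. Against Cry KO the effect in Cry WT was lower, with differences of -1.30 for Dpy19l3, -2.70 for C4a, -1.76 for Snhg11 and -0.94 for Dynlt1b. With the series as a random effect 1 gene differed from Bmal1 WT and 0 from Cry KO, so these differences between groups cannot be told apart from differences between series. No cause was tested.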

How the results depend on the processing

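No paired analysis was possible because the replicate series of Cry WT have the numbers 2 and 4 under AL and 6 and 9 under RF, and share none.

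For the mean level, with 250 genes called, the number was 1187 with no filter, 548 with the compared groups alone, 719 with the 48 WT libraries, 467 in DESeq2, 441 in limma-voom, 0 with the series as a random effect, 548 without the libraries that stood apart and 164 with the Cry line alone. Leaving out a series gave 20 to 429. Without ZT0 it was 135, without ZT12 470, without ZT16 68 and without ZT20 50, and a cosine fit gave 445. Of the 250 genes 247 were also called in DESeq2 and 193 without the libraries that stood apart.

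With no filter, 476 genes were called at ZT0, 91 at ZT4, 161 at ZT8, 585 at ZT12, 211 at ZT16 and 869 at ZT20. Leaving out a series gave 0 to 1 at ZT4, 0 to 4 at ZT8, 0 to 271 at ZT12, 0 to 8 at ZT16 and 0 to 64 at ZT20. With the compared groups alone there were 0 at ZT12 and 553 at ZT20, and without the libraries that stood apart 0 and 115. Feeding by time called 846 with no filter, 16 in DESeq2, 5 with the random effect and 0 to 45 without a series.

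The difference from Bmal1 WT, with 1222 genes, gave 2120 with no filter, 1656 in DESeq2, 1 with the random effect and 250 to 635 without a series. That from Cry KO, with 999, gave 1549, 1252, 0 and 3 to 539, with 12 without the libraries that stood apart and 1 with the Cry line alone. The rhythm difference, with 14, gave 809 with no filter, 0 with the compared groups alone, 28 in DESeq2, 0 with the random effect, 0 to 73 without a series and 0 without the libraries that stood apart. Rhythmic genes numbered 534 to 2820 under RF and 122 to 1129 under AL without a series, and under AL 1896 with no filter, 1842 with the random effect and 561 without the libraries that stood apart.

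Direction reversed without series 2 of AL for Rny3 (log2 1.12) and Rn7sk (log2 0.72), which over the series left out ran from -9.53 to 1.12 and from -4.86 to 0.72. At ZT12 it reversed for Igtp (range -4.56 to 0.11) and Irgm1 (range -3.0 to 0.05) without series 2, for Tifa (range -0.84 to 4.71) without series 6, and without the libraries that stood apart for Igtp (0.25), Irgm1 (0.02) and Tifa (-0.78). The cause was not tested. With 5029979 counts the shallowest library limits genes of low level.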
